A study of Mus musculus with 6 samples.

Results

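Histone acetylation genes other than Hdac3 and its class I relatives were examined in epithelial cells of the mouse large intestine. They comprised 42 listed genes: 16 erasers, with the SIN3 scaffolds counted among them, 13 writers and 13 readers. Each was measured by the 1 probe set that names it alone, so that 42 of the 19533 genes tested were members. Cells came from germ-free HDAC3ΔIEC mice on the C57BL/6 strain, in which Hdac3 is deleted in intestinal epithelial cells (3 arrays). Their controls were germ-free HDAC3FF mice of the same strain with floxed Hdac3 alleles (3 arrays). All mice lacked a microbiota, and live EpCAM-positive cells of the large intestine were profiled on Affymetrix arrays, 1 per biological replicate. Whether a replicate was 1 mouse or a pool is not stated in the labels. The Cre transgene behind the deletion and the age and sex of the mice are not stated in the labels. The series asks how transcription in these cells differs with Hdac3 in the absence of bacteria, and the question here is whether the rest of the acetylation machinery differed in RNA level as well.

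Acetyl groups on histone lysines are placed by acetyltransferases (writers), bound by bromodomain proteins (readers) and removed by deacetylases (erasers). HDAC3 belongs to the zinc-dependent class I deacetylases and works within NCoR and SMRT corepressor complexes, where class IIa deacetylases can join it. Sirtuins form a separate family of deacylases that consume NAD. In the intestinal epithelium these enzymes act downstream of nuclear receptors and of metabolites, among them the short-chain fatty acids that bacteria produce.

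None of the 16 erasers, 13 writers or 13 readers passed the test between HDAC3ΔIEC and HDAC3FF (limma, Benjamini-Hochberg adjusted p under 0.05 over all genes), against 0.701% of the genes tested, or 1.26% of genes with a signal at or above the median. Adjusted p-values of the members ran from 0.161 for Kat6b to 0.995 for Sin3b. Mean levels in HDAC3ΔIEC lay between 71.2% (Sin3a) and 136% (Hat1) of those in HDAC3FF, and 36 of the 42 log2 fold changes were smaller than 0.25 in size. The 95% interval of the difference lay within 0.5 on the log2 scale in either direction for 28 members and within 1 for 41, against 72.1% and 95.6% of all genes. The exception to the wider bound was Hat1. Of genes with a signal at or above the median, 54.0% had an interval within 0.5. At its own standard error, a member would have needed a log2 difference of at least 0.49 (Kat6b) to 1.55 (Hat1), with a median of 0.67, to be called.

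Of the members, 5 had an unadjusted limma p under 0.05, all with lower means in HDAC3ΔIEC, namely Kat6b, Sin3a, Hdac9, Brd9 and Ncoa1. Over all genes 11.2% had such a p (5.84% with a lower mean), and 17.7% of genes with a signal at or above the median, so that 5 of 42 is near the background. In 8 of the 42 the 3 HDAC3ΔIEC values did not overlap the 3 HDAC3FF values, 7 of them lower (Kat6b, Sin3a, Hdac9, Brd9, Brd8, Baz2b and Ncoa3) and 1 higher (Brdt). Groups did not overlap for 16.2% of all genes and for 19.8% of genes with a signal at or above the median. For lower values alone the share was 7.70% of all genes and 10.6% of the brighter ones, and for higher values 8.45% of all genes.

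**Figure D1:**
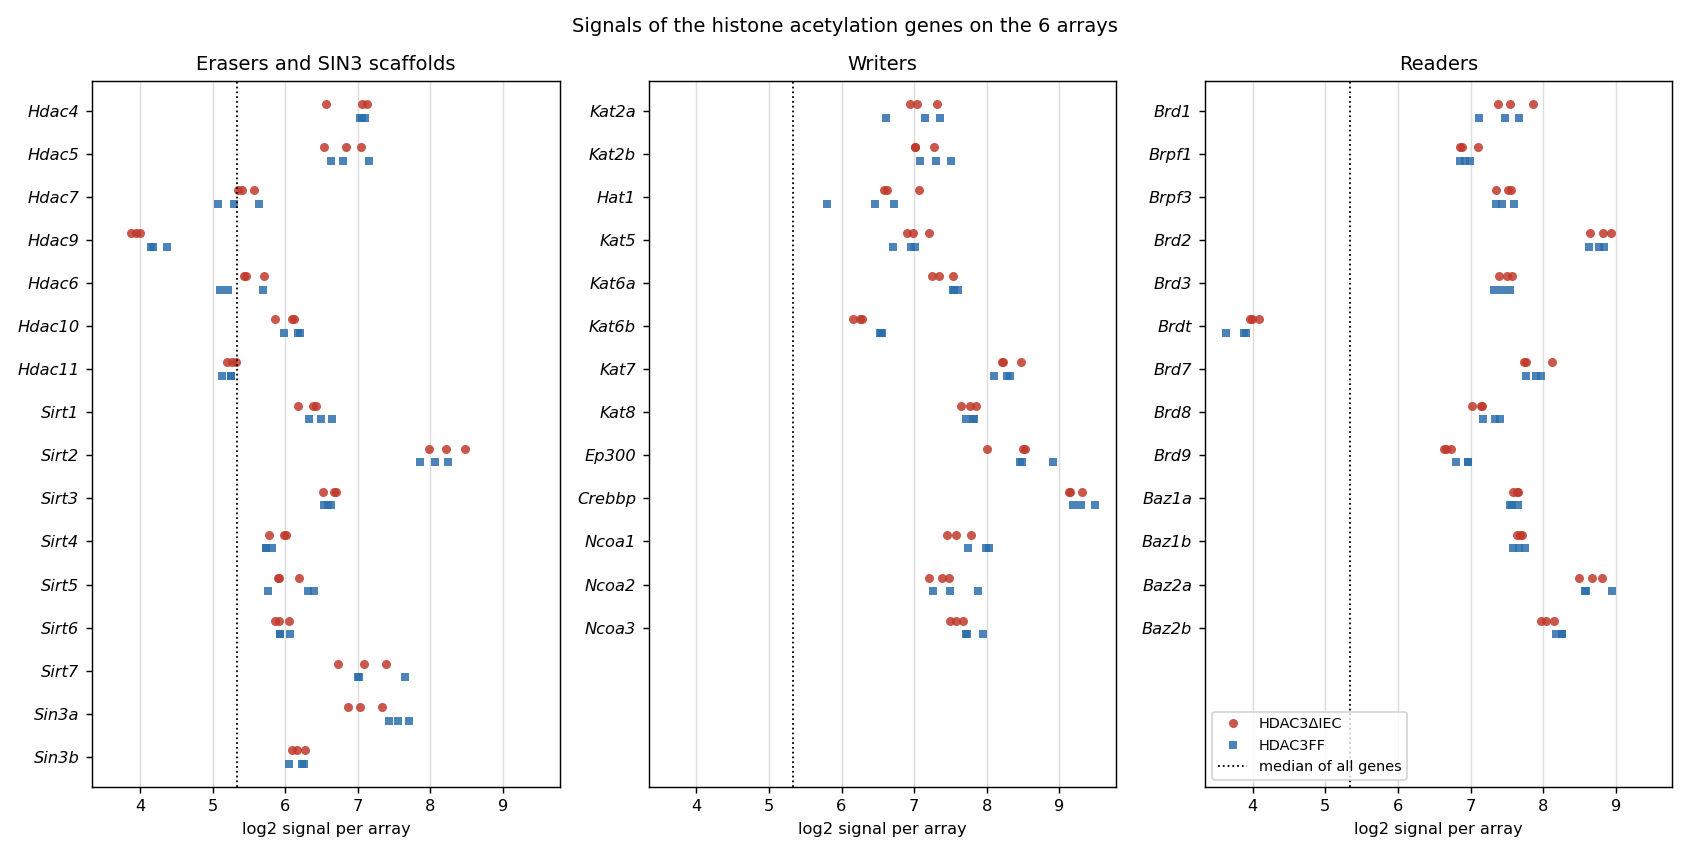
Log2 signal on each array (horizontal axis) for the 42 histone acetylation genes, in 3 panels by role and in rows by family. Red circles are the 3 HDAC3ΔIEC arrays, blue squares the 3 HDAC3FF arrays, and the dotted line is the median of all genes' mean signals, 5.34. In 34 of the 42 rows the colours overlap, and only Hdac9, Brdt and Hdac11 have means left of the line.

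Hdac3 itself, the deleted gene, read 6.58, 6.22 and 6.00 in HDAC3ΔIEC, against 6.96, 7.36 and 7.04 in HDAC3FF. Its log2 fold change of -0.86 ± 0.17 (SE) corresponds to 55.3% of the HDAC3FF level. Hdac3 was not called either (limma adjusted p = 0.0937). By exact permutation of the arrays, two-sided, its p was 0.1, and a comparison of 3 with 3 cannot go lower. The probe set may hold probes beyond the deletion, and those check nothing. In sorted cells measured in bulk, fewer cells of a type and less RNA per cell cannot be told apart. None of 12 epithelial markers was called. Epcam differed by -0.06 ± 0.10 and Vil1 by 0.18 ± 0.13 (SE). An unadjusted limma p under 0.05 was found for 5 of the 12, against 11.2% of all genes and 17.7% of the brighter ones. Groups did not overlap for 6 of the 12, 5 of those higher and 1 lower. That share was 16.2% for all genes and 19.8% for the brighter ones, so that both epithelial counts lay above the background. The epithelial markers went both ways, with Krt18 at 0.53 ± 0.16 and the colonocyte chloride exchanger gene Slc26a3 at -0.44 ± 0.08 (SE). Their summed linear signal was 47285 to 50742 in HDAC3ΔIEC and 40971 to 46695 in HDAC3FF. Of 12 myeloid markers 1 was called, C1qa, which fell by 1.71 on the log2 scale, against 0.701% of all genes called. An unadjusted limma p under 0.05 was found for 1 marker with a higher mean and 3 with lower means. Groups did not overlap for 2 higher and 2 lower. Each of these shares was 33.3%, also above the background of all genes and of the brighter ones. The summed myeloid signal was 433 to 512 in HDAC3ΔIEC and 550 to 631 in HDAC3FF. The myeloid markers had mixed signs: 6 had higher and 6 lower means, and Cd68 was at 0.51 ± 0.13 (SE) with groups apart. C1qb and C1qc were at 0.07 ± 0.10 and -0.11 ± 0.11 (SE). Mean signals of 9 of the 12, C1qb and C1qc among them, lay below the median of all genes. A difference in RNA can be compressed at such signals, so the signs and small differences of these 9 say little. The summed lymphocyte markers were at 208 to 231 in HDAC3ΔIEC and 225 to 237 in HDAC3FF, with none of 11 called. All 11 had mean signals below the median of all genes, so overlap of these sums says little about cell content. None of the 12 fibroblast and muscle, 8 endothelial or 6 neuron and glia markers was called. Of these, 8 fibroblast and muscle and 7 endothelial markers were also below that median. The neuron and glia sum was 194 to 220.3 in HDAC3ΔIEC and 158 to 190.2 in HDAC3FF, and Ret, on that list, was at 0.60 ± 0.13 (SE) with groups apart. The brightest marker of each list had a log2 fold change of 0.26 (Krt8, epithelium), -0.40 (Cd14, myeloid), -0.12 (Ighm, lymphocytes), 0.27 (Tagln, fibroblasts and muscle), 0.21 (Lyve1, endothelium) or 0.32 (Snap25, neurons and glia). Without HDAC3FF replicate 3, Krt18 (limma adjusted p = 0.0238) and Ret (0.0236) passed, as Ret did with array weights (0.0364). C1qa lost its call under the replicate block (0.104) and without HDAC3ΔIEC replicate 2 (0.123), HDAC3ΔIEC replicate 3 (0.0736) or HDAC3FF replicate 1 (0.0633). The epithelial, myeloid, and neuron and glia sums did not overlap between the genotypes, while the other 3 did. Such linear sums weigh the brightest markers most, for neurons and glia Snap25 and Ret. The rest of that list, 4 genes with mean signals below the median of all genes, had log2 fold changes from -0.05 (Sox10) to 0.14 (Elavl4). The part of the listed cell types in the values of the acetylation genes was not tested.

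Promoter sequences were available for 36 of the 42 genes, as RefSeq windows of 300 bases on GRCm38.p6 that run from 250 bases before to 50 after an annotated start. The dinucleotide CG was counted in each, on the given strand (it reads the same on both). In its window richest in CG, the median member held 25 CG, against 16 for the 15548 tested genes with a window and 22 for the 7946 of those with a signal at or above the median. The member median was thus closer to that of the brighter genes than to that of all tested genes. Crebbp and Ncoa1 held the most, 49 each, a count reached or passed by 1.69% of tested genes. Hdac9 held the fewest, 3 in the richer of its windows and 0 in the other, and 19.1% of tested genes held 3 or fewer. Shown here are windows of Kat6b, the member with the smallest p, of Hdac9, a dim member at the low end of CG content, and of Crebbp at the high end. Capitals mark each CG. Of all RefSeq windows, 94.6% hold at least 1 CG. The Kat6b window shown lies at chr14:21499520-21499819 on the plus strand with 32 CG. Its other window, at chr14:21499535-21499834, holds 34 CG and is the one that entered the member median. The Hdac9 window shown, the poorer in CG, lies at chr12:34917046-34917345 on the minus strand with 0. That of Crebbp lies at chr16:4213355-4213654 on the minus strand with 49.
Kat6b: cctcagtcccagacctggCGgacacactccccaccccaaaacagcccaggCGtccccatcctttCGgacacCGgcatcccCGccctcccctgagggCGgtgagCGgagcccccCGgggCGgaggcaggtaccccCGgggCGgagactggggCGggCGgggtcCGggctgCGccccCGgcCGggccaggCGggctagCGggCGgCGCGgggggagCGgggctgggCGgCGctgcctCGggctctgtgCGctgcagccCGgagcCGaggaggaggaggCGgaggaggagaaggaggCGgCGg
Hdac9: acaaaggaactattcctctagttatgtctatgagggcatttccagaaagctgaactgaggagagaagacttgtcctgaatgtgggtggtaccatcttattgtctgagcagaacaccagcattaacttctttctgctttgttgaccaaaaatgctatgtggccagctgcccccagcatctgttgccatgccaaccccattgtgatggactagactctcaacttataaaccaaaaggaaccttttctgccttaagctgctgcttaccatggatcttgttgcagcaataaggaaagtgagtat
Crebbp: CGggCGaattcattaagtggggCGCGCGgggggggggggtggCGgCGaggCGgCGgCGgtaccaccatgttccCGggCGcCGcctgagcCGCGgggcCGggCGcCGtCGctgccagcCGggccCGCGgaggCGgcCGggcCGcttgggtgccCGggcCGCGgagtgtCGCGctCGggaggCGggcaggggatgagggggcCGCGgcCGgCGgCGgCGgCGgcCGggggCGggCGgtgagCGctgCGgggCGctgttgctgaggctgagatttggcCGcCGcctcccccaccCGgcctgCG

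Among the erasers, the SIN3 scaffold gene Sin3a showed the largest difference. SIN3 proteins carry HDAC1 and HDAC2 into corepressor complexes. Sin3a read 7.03, 7.34 and 6.87 in HDAC3ΔIEC, against 7.55, 7.71 and 7.44 in HDAC3FF. All HDAC3ΔIEC arrays lay under all HDAC3FF arrays, and the log2 fold change was -0.49 ± 0.14 (SE, 95% interval -0.81 to -0.16), short of the threshold (limma adjusted p = 0.215). Its paralog Sin3b averaged 6.17 ± 0.09 in HDAC3ΔIEC and 6.18 ± 0.11 in HDAC3FF (SD, n = 3 each), and the interval of its difference was -0.23 to 0.22. Whether the paralogs differ from each other in their response was not tested.

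Class IIa deacetylases bind transcription factors of the MEF2 family and have little catalytic activity of their own. Hdac9, one of them, read 3.94, 3.88 and 4.001 in HDAC3ΔIEC, against 4.16, 4.18 and 4.38 in HDAC3FF. The groups did not overlap, the log2 fold change was -0.30 ± 0.09 (SE), and the limma adjusted p was 0.263. These signals are near the low end of the arrays, at the 24.5th percentile of all genes, where a difference in RNA can be compressed. By themselves they do not show that Hdac9 was expressed. The related Hdac4, Hdac5 and Hdac7 had log2 fold changes of -0.15 ± 0.15, -0.06 ± 0.17 and 0.11 ± 0.15 (SE), with overlapping groups. Hdac4 was tight in HDAC3FF, at 7.06, 7.11 and 7.03, and spread in HDAC3ΔIEC, at 7.13, 7.06 and 6.57, where the 1 low array set the difference. Without it the log2 fold change of Hdac4 was 0.03. Of the remaining zinc-dependent deacetylases, Hdac6, the cytoplasmic tubulin deacetylase, differed by 0.20 ± 0.17. Hdac10, a polyamine deacetylase, differed by -0.09 ± 0.11, and Hdac11, the class IV enzyme, by 0.05 ± 0.08 (SE).

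No sirtuin stood apart between the genotypes. SIRT1, SIRT6 and SIRT7 are nuclear, SIRT2 is mainly cytoplasmic, and SIRT3, SIRT4 and SIRT5 are mitochondrial. Sirt1, a deacetylase of histones and transcription factors, read 6.17, 6.38 and 6.43 in HDAC3ΔIEC and 6.33, 6.50 and 6.64 in HDAC3FF. Sirt4 read 6.01, 5.78 and 5.99 in HDAC3ΔIEC and 5.81, 5.73 and 5.73 in HDAC3FF. Sirt2 read 8.21, 8.48 and 7.98 in HDAC3ΔIEC and 7.86, 8.06 and 8.24 in HDAC3FF. In each of these genes at least 1 array of one genotype fell within the range of the other. The 7 log2 fold changes ran from -0.16 (Sirt1) to 0.17 (Sirt4), 3 positive and 4 negative. Sirt7, a ribosomal DNA regulator, was the least precise, with an interval of -0.68 to 0.37. Sirt3 and Sirt6 were the most precise, at -0.16 to 0.25 and -0.24 to 0.18.

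Writers gave the lowest median log2 fold change of the 3 roles, -0.18, against -0.04 for erasers, 0.02 for readers and 0.01 for all genes tested. Of the 13, 9 were negative, and none passed. The writer median depended on single arrays: it was -0.094 without HDAC3FF replicate 3, -0.11 without HDAC3ΔIEC replicate 3 and -0.25 without HDAC3ΔIEC replicate 2, and -0.075 with array weights. The eraser median turned positive without HDAC3FF replicate 3 (0.041), without HDAC3ΔIEC replicate 3 (0.032) and with array weights (0.033). The reader median turned negative without HDAC3ΔIEC replicate 2 (-0.0049) and without HDAC3FF replicate 1 (-0.0030). MYST acetyltransferases are the catalytic subunits of the NuA4, MSL, HBO1 and MOZ/MORF complexes. Kat6b, which encodes MORF, read 6.16, 6.28 and 6.25 in HDAC3ΔIEC, against 6.56, 6.54 and 6.53 in HDAC3FF. The HDAC3FF arrays were almost level, and each HDAC3ΔIEC array lay under them. The log2 fold change of -0.31 ± 0.08 (SE, 95% interval -0.49 to -0.13) had the smallest p of the 42 genes and did not pass (limma adjusted p = 0.161, and 0.157 to 0.424 with 1 array left out).

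Kat6a, which encodes the paralogous enzyme MOZ, read 7.35, 7.54 and 7.25 in HDAC3ΔIEC, against 7.54, 7.54 and 7.61 in HDAC3FF. Its groups met at HDAC3ΔIEC replicate 2, and the log2 fold change was -0.18 ± 0.10 (SE). Kat5 (TIP60, in NuA4) differed by 0.14 ± 0.12, Kat7 (HBO1) by 0.07 ± 0.11 and Kat8 (MOF, an H4K16 acetyltransferase) by -0.02 ± 0.09. The 3 p160 coactivators are docked by ligand-bound nuclear receptors and bring in p300 and CBP. Ncoa1 read 7.79, 7.58 and 7.46 in HDAC3ΔIEC, against 8.03, 7.99 and 7.75 in HDAC3FF, and Ncoa3 read 7.58, 7.67 and 7.50 in HDAC3ΔIEC, against 7.72, 7.72 and 7.95 in HDAC3FF. For Ncoa1 the highest HDAC3ΔIEC array passed the lowest HDAC3FF array, while the Ncoa3 groups were apart by a narrow gap. Log2 fold changes were -0.32 ± 0.12 for Ncoa1, -0.22 ± 0.10 for Ncoa3 and -0.19 ± 0.17 for Ncoa2 (SE), with limma adjusted p from 0.384 to 0.782.

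The paralogs p300 and CBP acetylate H3K27 at enhancers. Ep300 read 8.53, 8.50 and 8.001 in HDAC3ΔIEC, against 8.46, 8.49 and 8.91 in HDAC3FF. In 2 arrays of each genotype the values nearly coincided, and the difference of -0.28 ± 0.18 (SE) came from the low HDAC3ΔIEC replicate 3 and the high HDAC3FF replicate 3. Crebbp read 9.15, 9.31 and 9.14 in HDAC3ΔIEC, against 9.30, 9.19 and 9.49 in HDAC3FF, a difference of -0.12 ± 0.11. Among the GNAT enzymes, Kat2b (PCAF) differed by -0.20 ± 0.13 and Kat2a (GCN5) by 0.06 ± 0.20. Hat1, which acetylates new histone H4 before it is deposited on DNA, had the largest positive log2 fold change, 0.44 ± 0.25 (SE). It read 6.59, 6.63 and 7.07 in HDAC3ΔIEC, against 6.45, 6.72 and 5.79 in HDAC3FF. The low value of HDAC3FF replicate 3 carried much of that difference, which was 0.18 without that array.

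**Figure D2:**
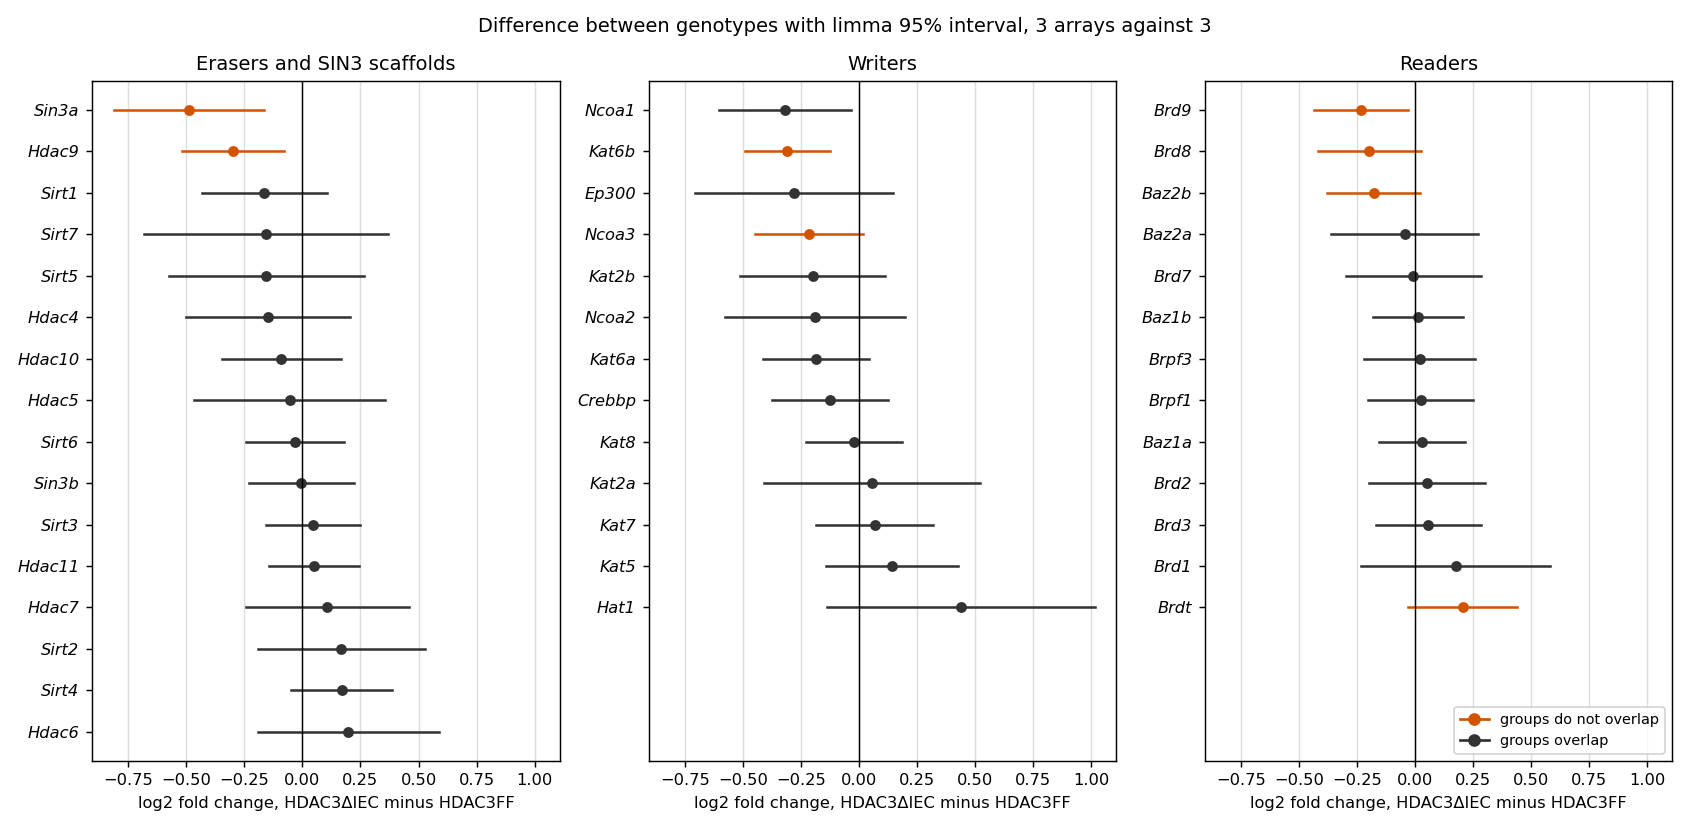
Log2 fold change of each gene, HDAC3ΔIEC minus HDAC3FF (horizontal axis), with limma's 95% interval, in 3 panels by role and ordered by the difference. Orange marks the 8 genes whose 3 HDAC3ΔIEC and 3 HDAC3FF values do not overlap, black the other 34. Intervals of 5 genes leave out 0 before adjustment, and that of Hat1 is the 1 interval that passes 1.

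Readers had the smallest median size of the log2 fold change of the 3 roles, 0.05, against 0.19 for writers and 0.15 for erasers. That size was 0.10 for all genes and 0.14 for genes with a signal at or above the median. Intervals of 12 of 13 lay within 0.5, beside 72.1% of all genes and 54.0% of genes with a signal at or above the median. BRD9 is a subunit of a noncanonical SWI/SNF remodelling complex. Brd9 read 6.63, 6.67 and 6.73 in HDAC3ΔIEC, against 6.97, 6.79 and 6.96 in HDAC3FF, apart by a narrow gap. Its log2 fold change was -0.23 ± 0.09 (SE, limma adjusted p = 0.359). Brd8, whose product is a NuA4 subunit, read 7.16, 7.14 and 7.01 in HDAC3ΔIEC and 7.17, 7.40 and 7.34 in HDAC3FF. The groups were separated by a very narrow gap, and the difference was -0.20 ± 0.10. Brd7, a subunit of the PBAF remodelling complex, differed by -0.01 ± 0.12.

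BET proteins bind acetylated histone tails through paired bromodomains. Brd2 read 8.82, 8.94 and 8.64 in HDAC3ΔIEC and 8.84, 8.64 and 8.77 in HDAC3FF, fully interleaved, with an interval of -0.20 to 0.30. Brd3 had an interval of -0.17 to 0.28. Brdt, the testis member of the family, read 3.96, 4.08 and 3.99 in HDAC3ΔIEC and 3.64, 3.89 and 3.90 in HDAC3FF. It was the 1 member with higher, non-overlapping values (0.20 ± 0.10, SE), at signals near the bottom of the arrays, at the 19.5th percentile of all genes, so these values do not show that the gene was expressed.

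BAZ proteins pair with ISWI ATPases in chromatin remodelling complexes. Baz2b read 8.04, 8.15 and 7.97 in HDAC3ΔIEC, against 8.26, 8.18 and 8.26 in HDAC3FF, a difference of -0.18 ± 0.08 (SE, limma adjusted p = 0.506). Its paralog Baz2a, a subunit of the nucleolar remodeller NoRC, read 8.81, 8.67 and 8.50 in HDAC3ΔIEC and 8.58, 8.59 and 8.95 in HDAC3FF. Every HDAC3ΔIEC value of Baz2b lay under the HDAC3FF range, and those of Baz2a overlapped it. Baz1a (ACF1) and Baz1b (WSTF) had intervals of -0.15 to 0.21 and -0.18 to 0.20. The BRPF scaffolds hold MYST enzymes on chromatin, and Brd1, Brpf1 and Brpf3 differed by 0.17 ± 0.17, 0.02 ± 0.10 and 0.02 ± 0.10.

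Spread between arrays of one genotype exceeded the difference between genotypes for most members. In 38 of 42 the wider of the 2 within-genotype ranges was larger than the difference of the means, as it was for 90.8% of all genes. The array farthest from the other 2 of its genotype was HDAC3ΔIEC replicate 3 for 21 members and HDAC3FF replicate 3 for 22. Over all genes those arrays were farthest for 43.8% and 42.5%. HDAC3ΔIEC replicate 3 had the lowest mean over the 42 genes, 6.92, beside 6.98 and 7.03 on the other HDAC3ΔIEC arrays. HDAC3FF replicate 3 had the highest, 7.08, beside 6.97 and 7.03 on the other HDAC3FF arrays. The means over all genes tested were 5.83 to 5.84 in HDAC3ΔIEC and 5.81 to 5.84 in HDAC3FF. Without HDAC3FF replicate 3, 430 of the 19533 genes tested passed, and none of the 42 did. At so small a share of all genes, a count of none does not set the members apart.

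**Figure D3:**
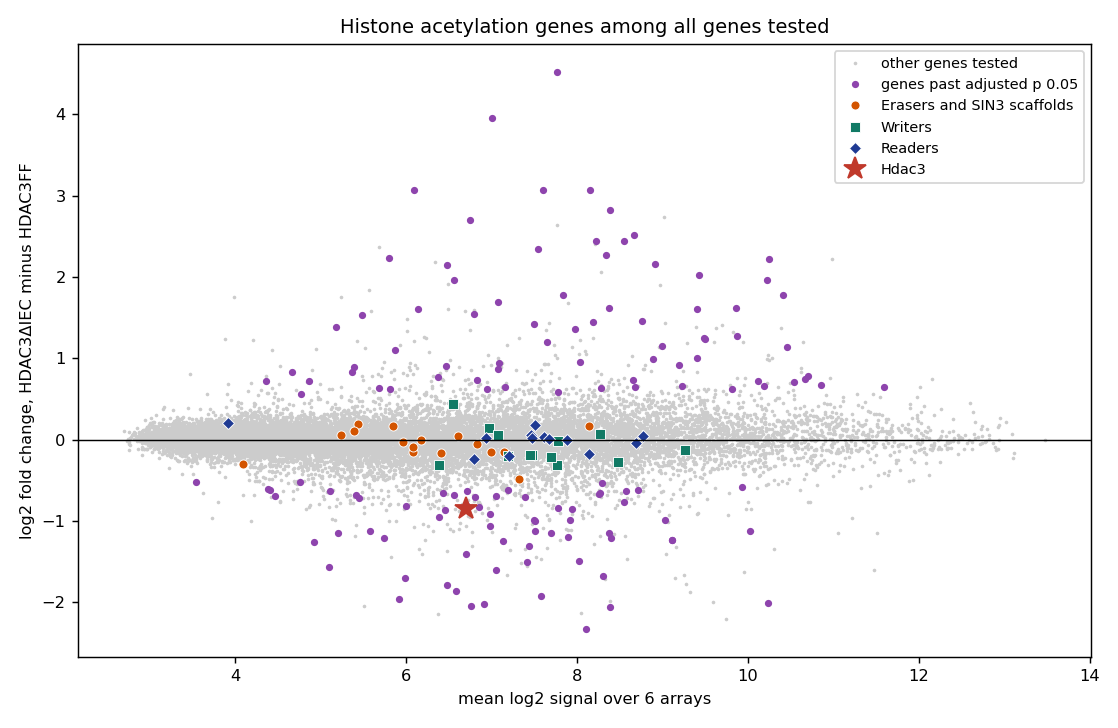
Log2 fold change, HDAC3ΔIEC minus HDAC3FF (vertical axis), against mean log2 signal over 6 arrays (horizontal axis) for 19533 genes in grey. Purple points are the 137 genes past an adjusted p of 0.05, coloured symbols the 42 histone acetylation genes by role, and the star Hdac3. The 42 lie between -0.49 and 0.44, inside the band of genes that did not pass.

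Genes that supply or assemble the same machinery, 121 in 6 lists, gave 2 calls (1.65%), against 0.701% of all genes and 1.26% of genes with a signal at or above the median. Among 7 measured class I deacetylase and HDAC3 corepressor genes, Tbl1x, whose product is a subunit of the NCoR and SMRT complexes, rose, and the other 6 did not pass. Those included Hdac3, lower on every HDAC3ΔIEC array as given above, the Tbl1x paralog Tbl1xr1, at 1.03 ± 0.21 (SE, limma adjusted p = 0.0966, and 0.0346 with the mean of its probe sets), and Hdac1, at 0.34 ± 0.13, the last pair with higher values and groups apart. Tbl1x read 9.02, 9.06 and 8.92 in HDAC3ΔIEC, against 8.29, 8.47 and 8.30 in HDAC3FF, 0.65 ± 0.09 higher on the log2 scale (SE, limma adjusted p = 0.0355). Of 27 subunits of NuA4, MSL, NSL and MYST complexes, Ing3 fell and none rose. Ing3 encodes a PHD finger subunit of NuA4, the complex of Kat5. It read 6.43, 6.54 and 6.38 in HDAC3ΔIEC, against 7.32, 7.08 and 7.05 in HDAC3FF, a difference of -0.70 ± 0.10 on the log2 scale (SE, limma adjusted p = 0.0396). Groups did not overlap for either gene, as for 16.2% of all genes, which adds little for genes chosen by their call. Both lost the call in 5 of the 6 fits that left out 1 array, all but the one without HDAC3FF replicate 3 (adjusted p 0.0340 to 0.172 for Tbl1x and 0.0265 to 0.145 for Ing3). Both also lost it with the replicate number as a block (0.120 for Tbl1x and 0.134 for Ing3), although the numbers were not taken as pairs. Ing3 further lost it with quantile normalization (0.0547) or with each array centred on its median (0.0530), and Tbl1x with an intensity trend (0.0684).

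Elsewhere in the machinery no gene passed. Of 28 SIN3, NuRD and CoREST subunits, Chd3, a NuRD ATPase, had the smallest p (0.65 ± 0.12, SE, limma adjusted p = 0.0735), and passed without HDAC3FF replicate 3 (0.0410) or with array weights (0.0304). Brms1l, a SIN3 complex subunit, came next at -0.36 ± 0.11. Of 18 SAGA and ATAC subunits, the deubiquitinase module genes Atxn7l3 and Atxn7 had the smallest p, though not the largest differences. They went in opposite directions, with 0.41 ± 0.13 and -0.34 ± 0.11. Of 22 other acetyl-lysine readers, the smallest p were those of Smarca2, a SWI/SNF ATPase (-0.46 ± 0.11), and Dpf2, a SWI/SNF subunit (0.26 ± 0.09). Of 19 genes of acetyl-CoA and NAD supply they were those of Nmnat2 and Pdha1. Nmnat2, an enzyme of NAD synthesis, differed by -0.68 ± 0.13 (limma adjusted p = 0.0792, and 0.0302 with array weights). Pdha1, a pyruvate dehydrogenase subunit, differed by 0.50 ± 0.15. Medians of the 6 lists ran from -0.13 (SAGA and ATAC) to 0.07 (acetyl-CoA and NAD supply), beside 0.01 over all genes.

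**Figure D4:**
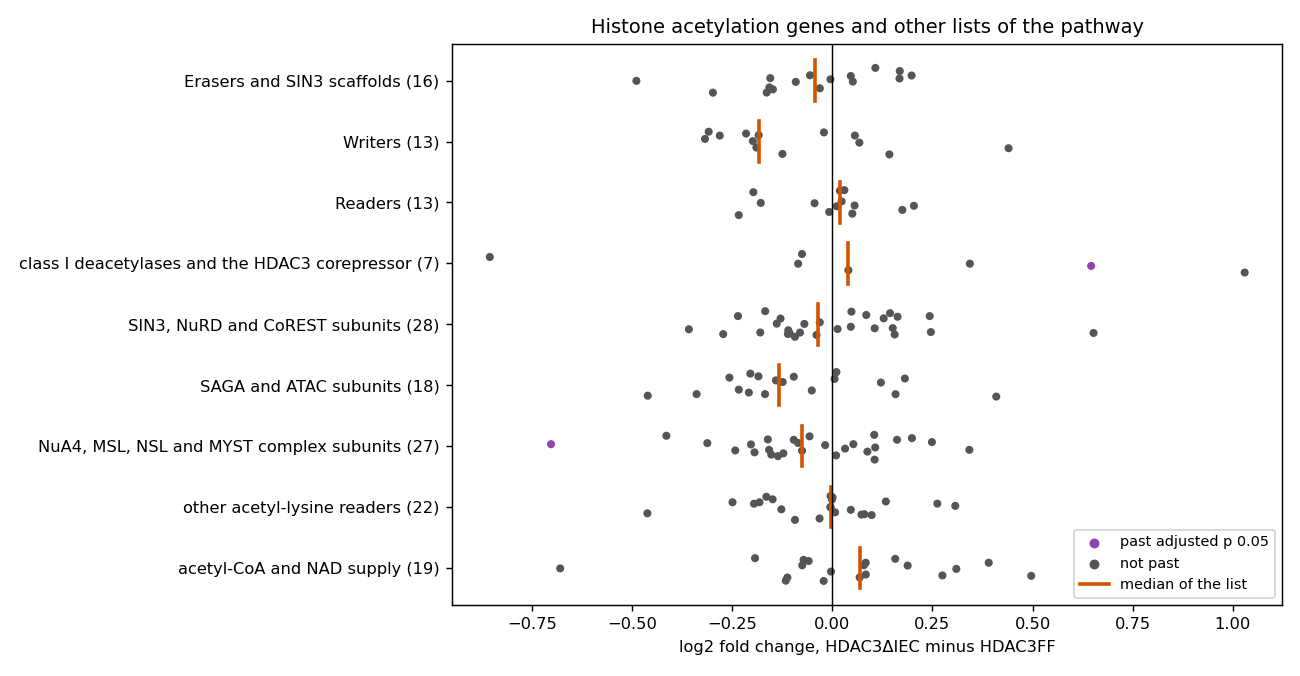
Log2 fold change, HDAC3ΔIEC minus HDAC3FF (horizontal axis), of each measured gene in the 3 roles and in 6 other lists of the pathway, with the number of genes in brackets. Orange bars are medians, and purple points are genes past an adjusted p of 0.05. Purple marks Tbl1x at 0.65 and Ing3 at -0.70, and no member of the 3 roles.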

How the data were processed

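Total RNA of 6 biological replicates was hybridised to 1 Affymetrix array each. What the authors deposited is a log2 signal for each probe set on each array. Per the submitters' processing notes, Affymetrix Power Tools was used. No version, background correction or normalization is recorded in the labels, and values below background are not marked. The platform's annotation names 1 gene for 21105 of 24939 probe sets. For genes with several, the one with the highest mean over 6 arrays was used. All 42 genes have 1 such probe set. No pair of arrays shared more than 0.00133 of its values.

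The genotypes were compared with limma 3.58.1 in R 4.3.3 (lmFit, eBayes, two-sided, no covariate, 3.26 prior degrees of freedom), adjusted by Benjamini-Hochberg over 19533 genes and called under 0.05. The fit was also run on simulated data, with noise drawn independently for each gene and array. Such data cannot show how the fit behaves where an array deviates in many genes. Precision is limited by 3 arrays a genotype. Promoter windows are RefSeq's; figures were drawn with matplotlib 3.10.9.

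Members and lists were chosen with earlier results of these data known. Values per array are given for the 4 smallest p and the 2 highest mean signals in each role and the lowest mean signal. Hdac4, Hat1, Tbl1xr1, Hdac1, Slc26a3, Krt18, Cd68, C1qa, C1qb, C1qc and Ret were added after their values were seen. In 6 other lists of the pathway, named genes are called ones or the 2 with the smallest p. Other settings tried were the replicate number as a block, eBayes with a trend or a robust prior, array weights, quantile normalization, median centring, filters on dim genes, other uses of probe sets, omission of each array, a log2 difference of 0.5 or more, and an adjusted p under 0.10.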

Additional observations from a re-analysis of the deposited data

How the results depend on the processing

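None of the 42 genes, nor of the erasers, writers or readers apart, was called under any alternative (limma). Of the 19533 genes tested, 13 to 430 were called with 1 array left out, against 137 with all arrays. That number was 12 with the replicate block, 357 with array weights and 321 at an adjusted p under 0.10. Same-numbered arrays did not deviate together (correlations of -0.02, -0.07 and -0.20), so replicate numbers were not taken as pairs. Hdac3 (-0.86) passed at an adjusted p under 0.10, applied to it after its value was seen, and under no other alternative (adjusted p 0.0599 to 0.324). Of the 42 genes, 26 kept their sign in every setting, and those that turned had log2 fold changes of 0.16 or less in size. With array weights the reversed log2 fold changes were 0.086 for Hdac5, 0.010 for Sirt6, 0.025 for Sirt7, -0.012 for Kat2a, -0.0057 for Kat7, -0.0050 for Baz1b, 0.055 for Baz2a and 0.040 for Sin3b. With quantile normalization they were 0.0018 for Brd7 and 0.014 for Sin3b, and with median centring 0.0070 for Brd7 and 0.010 for Sin3b. The lymphocyte marker Ighm was at 0.036, in place of -0.12, when its probe sets were averaged. With 1 array left out, the ranges of the log2 fold change that cross 0 were Baz1b -0.033 to 0.052, Baz2a -0.12 to 0.079, Brd2 -0.020 to 0.13, Brd3 -0.0030 to 0.11, Brd7 -0.13 to 0.059, Brpf1 -0.053 to 0.069, Brpf3 -0.036 to 0.088, C1qb -0.028 to 0.14, Epcam -0.11 to 0.015, Hdac4 -0.26 to 0.028, Hdac5 -0.18 to 0.088, Hdac7 -0.022 to 0.26, Kat2a -0.16 to 0.21, Kat7 -0.017 to 0.11, Kat8 -0.070 to 0.035, Sin3b -0.070 to 0.036, Sirt6 -0.085 to 0.014 and Sirt7 -0.32 to 0.054. The cause of these turns was not tested. Signals near the bottom of the arrays (Hdac9, Brdt) limit what can be said of those genes.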
